A study of Mus musculus with 29 samples.

Results

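The 8 transcription factor genes examined here mark the identity of retinal ganglion cells (RGCs): the POU-domain genes *Pou4f1* (Brn3a) and *Pou4f3* (Brn3c), the LIM-homeodomain gene *Isl1*, the T-box gene *Tbr1*, the forkhead gene *Foxp2*, the chromatin organizer gene *Satb1*, and the Iroquois genes *Irx2* and *Irx6*. They were chosen by name, with no threshold on their values but with earlier results of these data known. They are 8 of the 18194 genes with a named probe set on the array, read at all of their 19 probe sets. The series holds 29 single RGCs from adult retinas of C57BL/6 mice. Each cell was identified by its light responses in the intact retina, aspirated with a glass pipette, amplified as cDNA and hybridized to its own array.

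By their labels, 8 cells were direction selective (DS), as 4 ON DS cells (1 to 4) and 4 ON-OFF DS cells (5 to 8). The 2 orientation selective cells (OS) were labelled for the vertical (ON vOS 9) or the horizontal direction (ON hOS 10), and 9 were alpha cells, with 2 ON alpha (12 and 13), 4 OFF sustained alpha (OFF S alpha 14, 15, 16 and 18) and 3 OFF transient alpha cells (OFF T alpha 17, 19 and 20). The other 10 were J-RGC 11, EyeWire 6sw 21, EyeWire 6sn 22, OFF high speed selective 23, EyeWire 4i 24, the suppressed-by-contrast cells SbC 25 and SbC 26, the pixel encoder PixON 27, the sustained cell ON S non-alpha 28 and the local edge detector LED 29. No cell was treated, and all shared the strain, the tissue and the age class. No source used here says which animal gave which cell, so cells of a subtype were not counted as independent, and 10 of the 16 labelled subtypes rest on 1 cell.

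As background, ganglion cells arise from progenitors under *Atoh7*, and Brn3 and Islet factors then act together to turn on the ganglion cell program. In the adult retina many of these factors persist in subsets of cells, where they are read in combination. The *Pou4f* genes divide the ganglion cells by dendritic form. *Isl1* is also made by ON bipolar cells and cholinergic amacrine cells, and *Irx6* and its neighbor *Irx5* by certain cone bipolar cells. *Tbr1* marks J-RGCs and other cells with OFF-layer dendrites and directs where those dendrites stratify. *Satb1* is required for the bistratified dendrites of ON-OFF DS cells, and *Foxp2* defines a family of small ganglion cells, the F-RGCs.

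Values are linear array signals. The trimmed mean of every array, with 2% of the probe sets taken off each end, was 1500, and a gene was called detected in a cell at or above 2 times that level (3000). For log2 values, signals under 375 were set to that floor, whose log2 is 8.55. Each gene was read at 1 probe set, the one with the greatest mean on this scale, unless another is named. Signals are compared between cells, not between genes, since probe sets differ in brightness. Counts of detected cells are set side by side for different genes, and as 1 threshold serves every probe set, they depend on that brightness too. Intervals on shares of cells are exact (Clopper-Pearson) at 95% and cover counting error alone.

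The number of genes detected per cell, which stands for depth, was 1182 to 4201 with a median of 2908. As to the ganglion cell label, *Sncg* was detected in all 29 cells, and the median cell had 10 of 13 ganglion cell markers. The 3 cells that stood apart had fewer than 7 of these markers, EyeWire 6sw 21 with 4, SbC 26 with 5 and ON S non-alpha 28 with 6. Rod genes were detected in most cells (0 to 10 of 11, median 8), and 18 cells had at least 5 of them. Of 10 bipolar markers, 0 to 4 were detected, and the 5 cholinergic amacrine markers were undetected in all cells. As each array holds 1 cell, a factor below detection may be absent from the cell, lost in amplification or missed by its probe set. These cannot be told apart.

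The stretches upstream of the transcription start show how differently 3 of these genes are built. They stand for the factor seen in every ON-OFF DS cell (*Pou4f1*) and a factor whose probe sets picked out different cells (*Isl1*). The third, *Tbr1*, is the factor whose undetected cells all lay under the floor. The stretches are the 250 bases before the start, from RefSeq on build GRCm38.p6, written 5′ to 3′ on the gene's strand. *Pou4f1* lies at chr14:104468000-104468249 (minus strand), *Isl1* at chr13:116309689-116309938 (minus strand) and *Tbr1* at chr2:61804203-61804452 (plus strand). Capitals mark TAAT, the core that many homeodomain proteins recognize, on either strand (ATTA on the strand shown), overlaps counted separately.
Pou4f1: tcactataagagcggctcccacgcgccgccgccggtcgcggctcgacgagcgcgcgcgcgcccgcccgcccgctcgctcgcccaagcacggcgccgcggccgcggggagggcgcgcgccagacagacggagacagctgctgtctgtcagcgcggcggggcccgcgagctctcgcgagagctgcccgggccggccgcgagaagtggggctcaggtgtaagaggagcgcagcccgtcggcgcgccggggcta
Isl1: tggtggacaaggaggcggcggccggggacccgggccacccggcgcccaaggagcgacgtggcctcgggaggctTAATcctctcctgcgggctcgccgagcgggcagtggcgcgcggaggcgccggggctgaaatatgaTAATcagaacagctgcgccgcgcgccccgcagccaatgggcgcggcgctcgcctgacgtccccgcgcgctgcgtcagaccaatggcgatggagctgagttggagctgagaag
Tbr1: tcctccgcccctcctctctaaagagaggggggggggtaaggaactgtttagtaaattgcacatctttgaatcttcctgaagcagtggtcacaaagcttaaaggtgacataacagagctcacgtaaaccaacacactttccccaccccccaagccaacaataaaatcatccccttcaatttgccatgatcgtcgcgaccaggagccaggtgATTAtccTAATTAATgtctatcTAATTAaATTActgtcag

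The *Pou4f1* stretch was 78.0% G or C, with 47 CG pairs and no TAAT. *Isl1* held 33 CG pairs and 2 TAAT cores, and *Tbr1* 5 CG pairs and 7 TAAT cores, all in the bases next to the start. Over 32851 upstream stretches of the same length, the median was 6 CG pairs. At least 1 TAAT was present in 54.9% of them and at least 7 in 1.92%. A match describes letters and is neither a binding site nor a cause. Of the 8 genes, 5 had an entry, the other two being *Irx2* (chr13:72628570-72628819, plus strand, 19 CG pairs and no TAAT) and *Satb1*, which had 5 starts.

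*Pou4f1* and *Isl1* were the factors met most often, each in 11 of 29 cells (37.9%, 20.7 to 57.7%). *Irx6* was detected in 9 cells (31.0%), *Irx2* in 5 (17.2%), and *Tbr1* and *Satb1* in 3 each (10.3%). *Pou4f3* and *Foxp2* were detected in none. Thus 6 of the 8 factors passed in at least 3 cells, against 39.1% of all 18194 genes, and 3 of the 8 in at least 9 cells, against 20.2% of all genes. Of all genes, 45.0% were detected in no cell, as were these 2. Because the factors were chosen with earlier results of these data known, the shares describe them and test nothing. The log2 signals of all 8 factors in all 29 cells are drawn as a map.

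**Figure D1:**
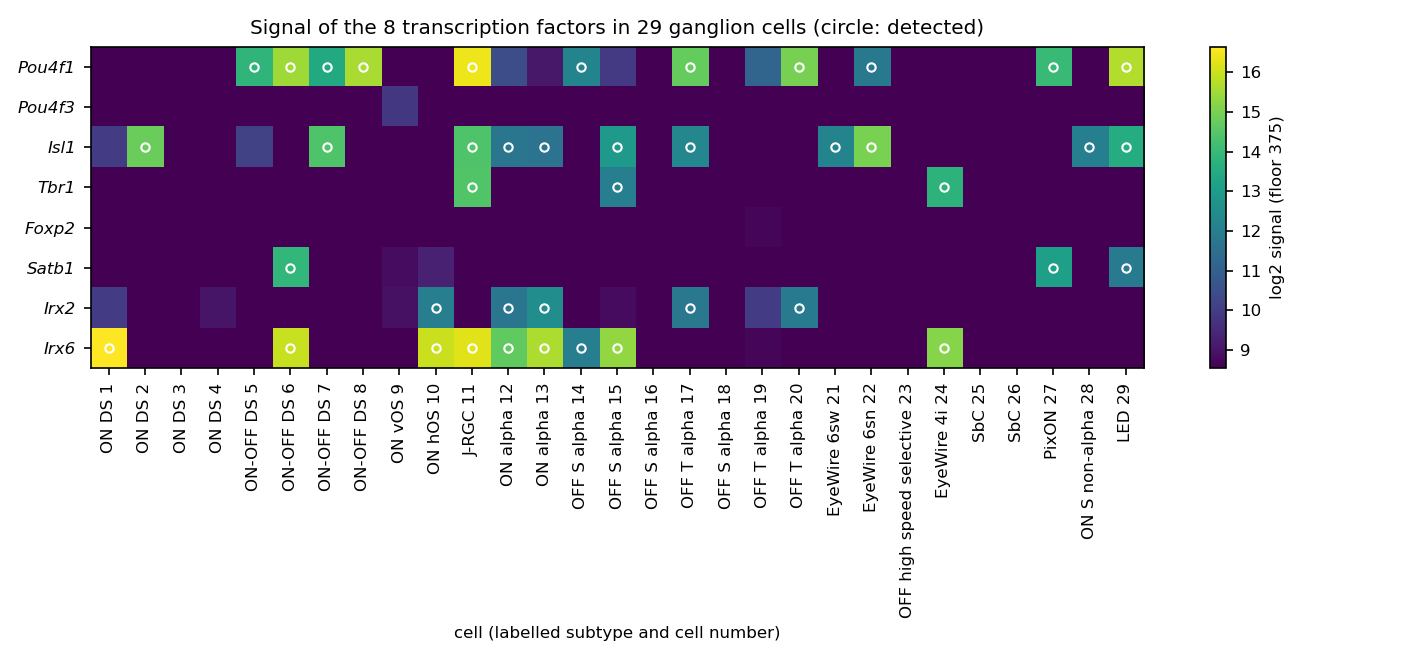
Log2 signal (color, floor 375) of the 8 factors (rows) in the 29 cells (columns, in order of cell number), with a white circle where a factor was detected. *Pou4f1* runs through all 4 ON-OFF DS cells and none of the ON DS cells, and 9 columns carry no circle.

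*Pou4f1* encodes a POU-homeodomain factor that sustains ganglion cell differentiation and dendritic form. Among the ON-OFF DS cells its signal was 14676 in cell 5, 45608 in cell 6, 11373 in cell 7 and 49370 in cell 8. In the 4 ON DS cells it was 114 to 154, which is under the floor. The subtypes did not overlap, with the lowest ON-OFF DS cell far above the highest ON DS cell. The medians were 14.66 and 8.55 on the log2 scale, the latter being the floor itself, so the difference of 6.11 depends on where the floor is set and was 4.11 with the floor at the trimmed mean. The pattern of detection in all 4 ON-OFF DS and in none of the 4 ON DS cells, picked after its values were seen, was shared by 29 of 18194 genes (0.159%). The intervals on the shares are wide, 39.8 to 100% for ON-OFF DS and 0 to 60.2% for ON DS cells. The ON-OFF DS cells also held more detected genes (2748 to 3591) than the ON DS cells (1842 to 3107), with overlap, and the part of depth in this difference was not tested.

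Outside the DS class, the highest *Pou4f1* signals were in J-RGC 11 (88327) and LED 29 (53522). OFF T alpha cells 17 and 20 had 27026 and 32439, whereas OFF T alpha 19, at 2309, was the highest cell below detection. Among the OFF S alpha cells it was detected in cell 14 (4686), while cells 15, 16 and 18 had 964, 8.48 and 88.0. PixON 27 had 16469 and EyeWire 6sn 22 had 3576, the lowest detected value. Both ON alpha cells (1422 and 534) and both OS cells were below detection. By the polarity in the label, *Pou4f1* was detected in 1 of 10 ON cells, 3 of 8 OFF cells, 4 of 4 ON-OFF cells and 3 of 7 cells whose label names no polarity. Its second probe set was detected in ON-OFF DS 7 (4229) and PixON 27 (3092), both among the 11. Cells with *Pou4f1* had a median of 2 of 11 rod genes (1 to 10), and cells without it 9.5 (0 to 10). The summed rod signal was 54011 to 1722680 and 1569 to 7142970. The part of rod RNA in this difference was not tested. Among the 11 cells with fewer than 5 rod genes, 63.6% had *Pou4f1*.

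**Figure D2:**
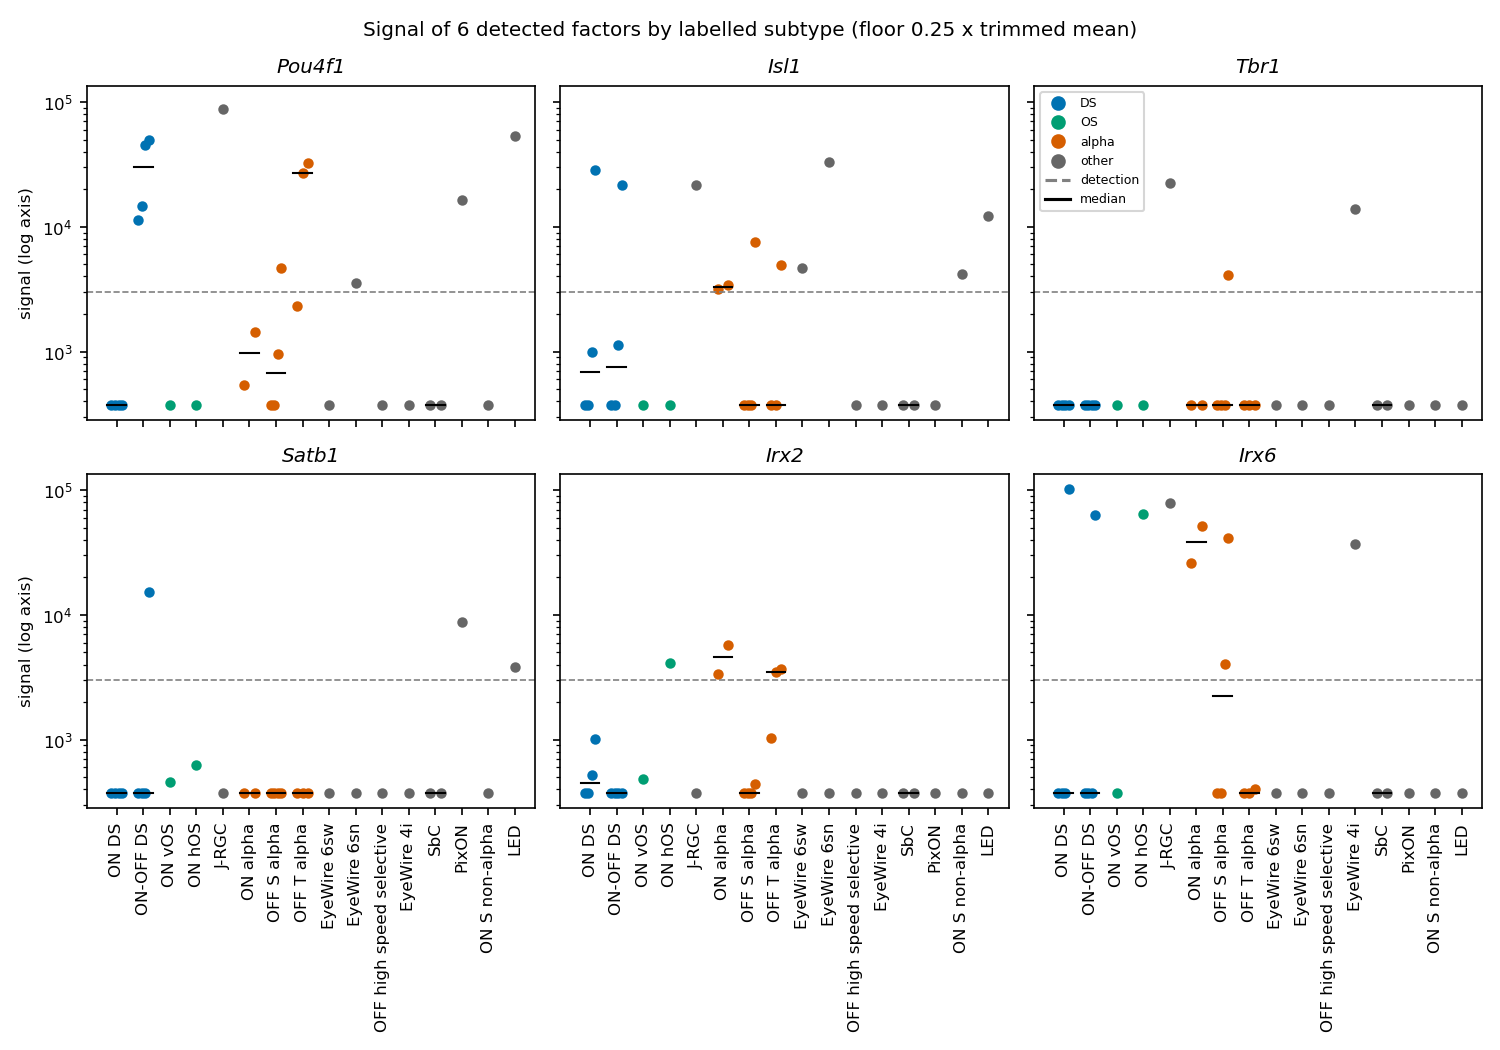
Signal on a log axis for the 6 detected factors in the 16 labelled subtypes, 1 point per cell, colored by class, with the dashed line at detection (3000), values under 375 drawn at 375 and a bar at the median where a subtype has more than 1 cell. *Pou4f1* divides ON-OFF DS from ON DS cells, the *Irx2* points above the line lie in alpha and ON hOS cells just over it, and *Irx6* points lie either above the line or near the floor.

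*Pou4f3*, a relative used by a smaller set of ganglion cells, peaked at 937 in ON vOS 9, and the exact interval for 0 of 29 cells reaches 11.9% (3 counts over the total, a simpler limit, gives 10.3%). Either limit applies to detection at its 1 probe set, which was positive in no cell, and not to the presence of the transcript. Transcripts of *Pou4f2* were not analysed here. *Foxp2* was measured by 6 probe sets, the highest of which reached 404, in OFF T alpha 19. Its relative *Foxp1*, which shares the forkhead domain, was detected in 1 cell, ON vOS 9, at 99534, and *Foxp4* in 1 other, OFF S alpha 14.

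*Isl1* encodes a LIM-homeodomain partner of the Brn3 factors. Its highest signals were 33048 in EyeWire 6sn 22, 28285 in ON DS 2, 21757 in ON-OFF DS 7 and 21744 in J-RGC 11. LED 29 followed with 12162 and OFF S alpha 15 with 7609. Lower signals were measured in OFF T alpha 17 (4983), EyeWire 6sw 21 (4681), ON S non-alpha 28 (4165), ON alpha 12 (3412) and ON alpha 13 (3153). The highest undetected cell was ON-OFF DS 5, at 1126. Both ON alpha cells were thus positive, close to the threshold, while the DS and OFF alpha subtypes were each split. Every subtype of 3 or more cells held 1 cell with *Isl1*.

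A second *Isl1* probe set, annotated to the same source transcript, picked out other cells. It gave 41164 in ON-OFF DS 8, 20213 in OFF S alpha 14 and 8271 in LED 29. Of the 13 cells positive at either probe set, 1 (LED 29) was positive at both, or 7.69%. Over the 705 genes with 2 probe sets each detected in at least 3 cells, the median of that share was 62.5% (quartiles 26.7 and 88.2%), and 5.25% of these genes lay at or below *Isl1*. Across cells the log2 signals of both had a Pearson r of -0.09 and a Spearman rho of 0.24, and most values of both were below detection. Counts of *Isl1* cells therefore depend on the probe set read.

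**Figure D3:**
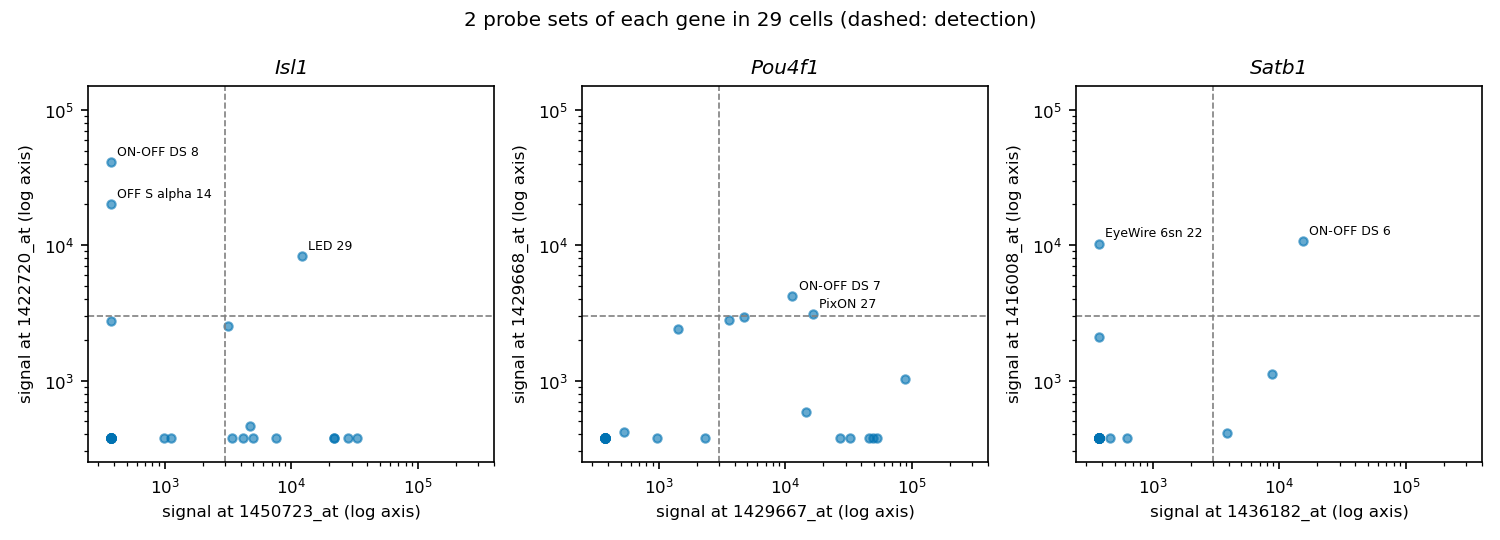
Signals at 2 probe sets of *Isl1*, *Pou4f1* and *Satb1*, 1 point per cell, both axes log, with dashed lines at detection and cells detected on the vertical axis named. For *Isl1*, LED 29 alone lies in the upper right; for *Pou4f1* both named cells do; for *Satb1*, ON-OFF DS 6 does and EyeWire 6sn 22 does not.

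Because *Isl1* is also a bipolar and cholinergic amacrine gene, markers of those cells were set beside it. The cholinergic markers *Chat*, *Slc18a3*, *Slc5a7*, *Sox2* and *Megf10* were below detection in every cell. Bipolar markers numbered 0 to 4 of 10 (median 1, summed signal 59.9 to 114688) in the 11 *Isl1* cells and 0 to 3 (median 0, 655 to 93492) in the other 18. *Vsx1*, *Trpm1*, *Lhx4*, *Irx5* and *Bhlhe23* were detected in no cell of either kind. Both cells with 4 bipolar markers, EyeWire 6sw 21 and ON S non-alpha 28, had *Isl1* as their one detected factor and few ganglion cell markers. The part of bipolar RNA in the *Isl1* values was not tested. Without the 3 cells low in ganglion cell markers, *Isl1* was detected in 34.6% of the rest.

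*Tbr1*, the T-box gene of J-RGCs, read 22281 in J-RGC 11, 13964 in EyeWire 4i 24 and 4099 in OFF S alpha 15. In each of the other 26 cells it was at most 267, which is under the floor. *Sorcs3*, a sorting receptor gene reported downstream of *Tbr1*, was detected in 1 of the 29 cells, and that was J-RGC 11 (37830). *Cdh8*, a cadherin gene likewise tied to *Tbr1*, was detected in none. *Jam2*, the adhesion gene that names J-RGCs, was detected in 10 cells and had its highest signal in J-RGC 11 (39944), and it was detected in 2 of the 3 *Tbr1* cells, with 4417 in EyeWire 4i 24. None of the 10 bipolar markers was detected in a *Tbr1* cell. *Eomes*, the T-box relative of *Tbr1*, was detected in ON DS 1 (28569), ON hOS 10 (25568) and ON alpha 12 (4791), and in no *Tbr1* cell.

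*Satb1*, which shapes chromatin loops, was detected in ON-OFF DS 6 (15353), PixON 27 (8819) and LED 29 (3848). ON hOS 10 came next at 629, well below detection. The other 3 ON-OFF DS cells were under the floor. At a second probe set *Satb1* gave 10758 in ON-OFF DS 6 and 10256 in EyeWire 6sn 22, so ON-OFF DS 6 was positive at both. Its other 3 probe sets were detected in no cell. All 3 *Satb1* cells also had *Cartpt*, a neuropeptide gene used as a marker of ON-OFF DS cells, at 181066, 64451 and 39687, as did 7 of the other 26 cells. The contactin gene *Cntn5*, reported downstream of *Satb1*, gave 4535 in ON-OFF DS 8 and 14363 in ON hOS 10, neither of them a *Satb1* cell, and was undetected elsewhere. Its partner gene *Cntnap4* was detected in 5 cells, 1 of which, PixON 27, had *Satb1*.

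*Irx2* was detected in 4 of 9 alpha cells and 1 of 2 OS cells. It read 3374 and 5791 in ON alpha 12 and 13, 3502 and 3655 in OFF T alpha 17 and 20, and 4122 in ON hOS 10. All 5 values lay within 2-fold of the threshold, and none passed at 4 times the trimmed mean. OFF T alpha 19 was the highest cell below, at 1023. The 4 OFF S alpha cells were at most 444, the 8 DS cells at most 1017, ON vOS 9 was at 481 and the 10 cells of the other subtypes at most 315.

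*Irx6*, detected in 9 cells, read 101648 in ON DS 1, 79600 in J-RGC 11, 64648 in ON hOS 10 and 63103 in ON-OFF DS 6. ON alpha 12 and 13 had 26125 and 51239, OFF S alpha 14 and 15 had 4077 and 41199, and EyeWire 4i 24 had 36778. The highest undetected cell was OFF T alpha 19, at 401, close to the floor. No OFF T alpha cell had *Irx6*, while 2 of 4 OFF S alpha cells did. *Irx6* was on in 1 cell each of ON DS and ON-OFF DS, each far above the rest of its subtype. The *Irx6* cells had 0 to 3 bipolar markers (median 0). *Irx5*, which shares the bipolar cells and the gene cluster with *Irx6*, was undetected in all 29.

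The melanopsin gene *Opn4*, which makes ganglion cells intrinsically light sensitive, was detected in 4 cells, and all 4 had *Irx6*. They were ON DS 1, ON hOS 10, ON alpha 12 and ON alpha 13, with *Opn4* signals of 34985, 20203, 50210 and 76724. They form 44.4% of the *Irx6* cells. Among the 683 genes detected in exactly 4 cells, 1.17% had all of them among the *Irx6* cells. Of the *Opn4* cells, 3 had *Irx2* and 3 had *Eomes*. The authors had already found *Irx6*, *Irx2* and *Eomes* among the correlates of *Opn4* in these same cells. The cells shared with *Opn4* are therefore no independent result. ON DS 1 differed from the other ON DS cells in having *Opn4*, *Eomes* and *Irx6* together, and in lacking *Cartpt*, which the other 3 had.

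Iroquois genes lie in clusters, with *Irx2* between *Irx1* and *Irx4*, and *Irx6* beside *Irx5* and *Irx3* (neighbors from RefSeq on GRCm38.p6). *Irx1* and *Irx5* were detected in no cell. *Irx4* was detected in ON-OFF DS 6 and PixON 27, and *Irx3* in PixON 27, so neither *Irx1* nor *Irx4* was detected in an *Irx2* cell, and neither *Irx3* nor *Irx5* in an *Irx6* cell. *Irx2* and *Irx6*, which lie on different chromosomes, shared 3 cells.

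Read together, the 8 factors gave 16 distinct combinations, counting the one with no factor, and 11 of them were seen in 1 cell each. No factor was found in 9 cells, while 6 cells had 1 factor, 7 had 2, 6 had 3 and 1 had 4. The cell with 4 was J-RGC 11, with *Pou4f1*, *Isl1*, *Tbr1* and *Irx6*. Both ON alpha cells had *Isl1*, *Irx2* and *Irx6*, a set found in no other cell. In ON alpha 12 and 13, *Isl1* (3412 and 3153) and *Irx2* (3374 and 5791) lay within 2-fold of the threshold. With the threshold at 4 times the trimmed mean, only *Irx6* (26125 and 51239) remained in these cells. The second *Isl1* probe set was below detection in both ON alpha cells (227 and 2512). Apart from the SbC pair, in which no factor was detected, no other subtype of 2 or more cells had the same factors in each member. The ON-OFF DS cells shared *Pou4f1* but had it alone (5 and 8), with *Isl1* (7) or with *Satb1* and *Irx6* (6). The ON DS cells had *Irx6*, *Isl1* or, in 2 cells, none. The OFF T alpha cells had *Pou4f1* and *Irx2* with and without *Isl1*, or none. The OFF S alpha cells had *Pou4f1* with *Irx6*, *Isl1* with *Tbr1* and *Irx6*, or, in 2 cells, none. Reading each gene at any probe set also gave 16 combinations and added *Isl1* to ON-OFF DS 8 and OFF S alpha 14, and *Satb1* to EyeWire 6sn 22.

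The 9 cells without a factor were ON DS 3 and 4, ON vOS 9, OFF S alpha 16 and 18, OFF T alpha 19, OFF high speed selective 23 and both SbC cells. They were shallower, with 1182 to 3014 detected genes (median 2023) against 1842 to 4201 (median 3096) in the other 20. Of the 9, 8 had at least 5 rod genes, against 10 of the other 20. Over the 29 cells, the number of factors had a Pearson r of 0.59 with the number of detected genes, 0.46 with the number of ganglion cell markers and -0.39 with the number of rod genes. The median was 2 factors in the 11 cells with fewer than 5 rod genes and 1 in the other 18. The parts of depth and of rod RNA in the absence of factors were not tested. By class, the median was 1 factor in DS and OS cells, 2 in alpha cells and 1.5 in the others.

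**Figure D4:**
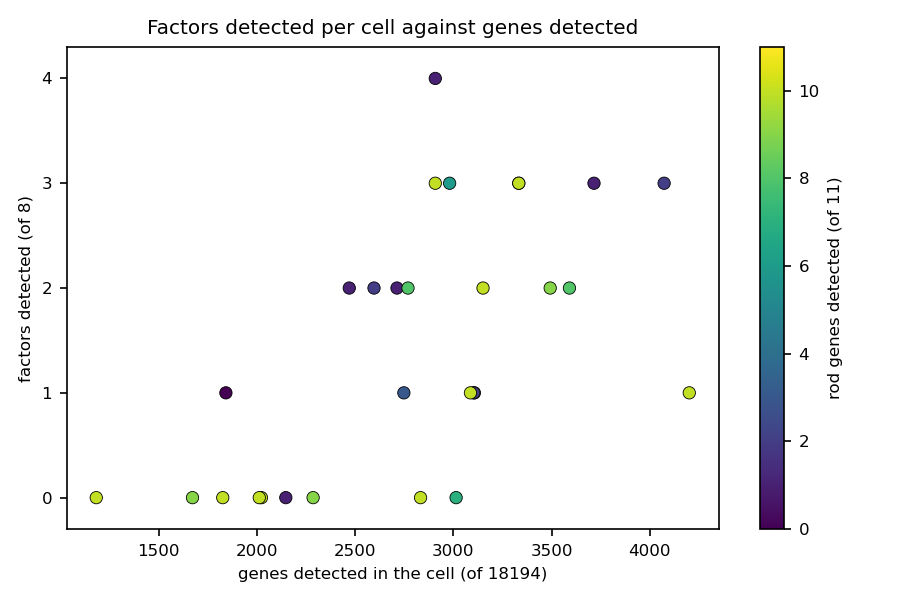
Number of the 8 factors detected in each of the 29 cells against the number of genes detected in that cell, colored by how many of 11 rod genes were detected. The cells with no factor lie between 1182 and 3014 detected genes, and 8 of these 9 have at least 5 rod genes.

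Of the 28 pairs of factors, 15 joined factors that were both detected, and 12 of these shared at least 1 cell. The remaining pairs include *Pou4f3* or *Foxp2*, detected in no cell, and could share none. *Tbr1* was nested in *Irx6*, since its 3 cells were 33.3% of the 9 *Irx6* cells. Of the 812 genes detected in exactly 3 cells, 3.45% had all of them among the *Irx6* cells. *Satb1* was nested in *Pou4f1* in the same way, with 3 of 3 and 27.3% of the *Pou4f1* cells. Here 7.76% of the genes detected in 3 cells had all of them among the *Pou4f1* cells. *Pou4f1* and *Isl1* shared 5 cells, 45.5% of each, which is near the 37.9% of all 29 cells in which each was detected. *Isl1* and *Irx6* shared 4. No share over other genes was computed for these pairs. *Tbr1*, *Satb1* and *Irx2*, detected in 3, 3 and 5 cells, were never detected in the same cell as one another. How often other genes detected in so few cells share none was not computed, so these counts do not show exclusion. The cells in these counts share their depth, so deeper cells contribute to more pairs.

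For DS against alpha cells, a factor was called where its median log2 signals differed by at least 2, a 4-fold difference, with no test, since no animal is named. None of the 8 factors passed, against 7.32% of all genes. The nearest was *Irx2*, with a difference of -1.45 (0 with the floor at the trimmed mean) and detection in 0 of 8 DS and 4 of 9 alpha cells. The difference in *Pou4f1*, 0.54, had no stable direction. Leaving out any 1 ON DS cell brought it past the rule, higher in DS, whereas leaving out any 1 ON-OFF DS cell turned it to -1.92, and among cells with fewer than 5 rod genes it was -0.88. Leaving out any 1 OFF S alpha cell brought *Irx2* past the rule, at -2.31. *Pou4f1* was detected in 4 of 8 DS and 3 of 9 alpha cells and divided both classes internally.

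For ON-OFF DS against ON DS cells, 1 of 8 factors passed, *Pou4f1*, against 11.6% of all genes. Averaged over its probe sets, *Pou4f1* differed by 3.49. Among the remaining 7 the difference farthest from 0 was -0.24, for *Irx2*. *Satb1* was detected in 1 ON-OFF DS cell and no ON DS cell, and *Isl1* and *Irx6* in 1 cell of each. In the 42 other transcription factor genes with a value, 4 were higher and 2 lower by the same rule, and of all genes 1526 were higher and 578 lower. Leaving out the cells with at least 5 rod genes, which left 3 ON-OFF DS and 2 ON DS cells, *Pou4f1* passed again, still against ON DS values under the floor. *Isl1*, at 0.09 over all 8 cells, then passed in the opposite direction, at -3.12, with 1 of the 2 ON DS cells detected and the other under the floor.

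For OFF S alpha against OFF T alpha cells, 2 of 8 passed, against 13.5% of all genes, of which 629 were higher in OFF S alpha and 1833 lower. *Pou4f1* was lower in OFF S alpha, at a median of 9.23 against 14.72, a difference of -5.49. The subtypes overlapped, since OFF T alpha 19 lay below OFF S alpha 14. Averaged over its probe sets, *Pou4f1* differed by -2.75, which comes from the first probe set. At the second, the OFF T alpha cells were under the floor (6.99, 9.78 and 131), as were OFF S alpha 15, 16 and 18. OFF S alpha 14 read 2962 there. *Irx2* was lower in OFF S alpha as well, 8.55 against 11.77, a difference of -3.22. The highest OFF S alpha cell (444) and the lowest OFF T alpha cell (1023) were both below detection. With the floor raised to the trimmed mean, *Irx2* differed by -1.22, and after quantile normalization by -1.12, and no longer passed. *Irx6* was higher by 1.72, short of the rule. Without OFF S alpha 16 or 18 it passed, at 3.44, as it did after quantile normalization, at 2.66, but without OFF S alpha 14 or 15 the difference was 0. All 4 OFF S alpha cells had at least 5 rod genes (6 to 10 of 11), while the OFF T alpha cells had 2, 7 and 2. The OFF S alpha cells held 1672 to 3151 detected genes and the OFF T alpha cells 2596 to 4073, with overlap. The parts of depth and of rod RNA in these differences were not tested.

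Of 47 other transcription factors of ganglion cells and family relatives, 42 had a value. Of these, 11 (26.2%) were detected in at least 3 cells, 10 in 1 or 2 cells and 21 in none. *Myt1l*, a neuronal zinc finger gene, was detected in 14 cells, *Ebf3* and the retinoid receptor gene *Rxrg* in 10 each, *Meis2* in 9 and *Ebf1* in 7. *Ebf3*, a helix-loop-helix factor of differentiating neurons, shared 7 cells with *Pou4f1*, which is 63.6% of the *Pou4f1* cells and 70.0% of its own. Of all 29 cells, 37.9% had *Pou4f1*, and no share over other genes was computed for this pair. *Isl2*, the relative of *Isl1*, was undetected in all 29 cells, although it belongs to the ganglion cell markers.

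Genes with the most similar pattern were ranked by Pearson r of log2 signals over the 29 cells. The 7113 genes that reached detection in 3 or more cells were ranked. These values describe the cells, which share differences in depth, and carry no p. For *Pou4f1* the leading gene was *Cplx2*, a complexin gene of synaptic vesicle release, with r 0.83 and rho 0.84. Its probe set may match more than 1 transcript. It was detected in 16 cells, among them all 11 *Pou4f1* cells, and in the 4 ON-OFF DS cells its signal was 52297 to 91161. The correlation with depth was 0.48 for *Cplx2* and 0.41 for *Pou4f1*. *Dock11* (r 0.78) was detected in 7 cells, all of them *Pou4f1* cells, and *Wdr13* (r 0.73) in 19, with all 11 included.

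For *Irx6* the leading gene was *Sertm1*, a small membrane protein gene, with r 0.84, rho 0.75 and r 0.93 without the 2 cells most distant from the *Irx6* median. *Sertm1* was detected in 7 cells, all with *Irx6*, and reached 99859 in EyeWire 4i 24. In the other *Irx6* cells, J-RGC 11 and OFF S alpha 14, it was at 5.52 and 61.8. The 2 cells left out for the r of 0.93 were ON DS 1 and J-RGC 11. That r therefore omits an *Irx6* cell that lacked *Sertm1*, and does not show that the likeness is firmer. The next genes were *2510039O18Rik* (r 0.68) and *Ctxn3* (r 0.67). For *Tbr1* it was the nuclear receptor gene *Nr2f6* (r 0.81, and 0.77 without 2 cells), detected in the 3 *Tbr1* cells and in OFF S alpha 14. *Tmem120b* and *Emsy* followed at 0.75 and 0.74, but fell to 0.30 and 0.37 without 2 cells.

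For *Satb1* the leading gene was *Haus3* (r 0.90, and 0.75 without 2 cells), a gene of the spindle augmin complex, which was detected in the 3 *Satb1* cells and ON-OFF DS 8. *AA414768* (0.83) and *Zfp628* (0.80) followed, at 0.55 and 0.67 without 2 cells. For *Irx2* the first were *Tbc1d4* (0.81), *Dip2b* (0.81) and *Dipk2a* (0.79), at 0.76, 0.80 and 0.65 without 2 cells. *Tbc1d4*, a regulator of glucose transporter traffic, was detected in all 5 *Irx2* cells and 2 others. For *Isl1* they were *Slain1* (0.70), *Akirin1* (0.69) and *Cep250* (0.69), at 0.64, 0.55 and 0.75 without 2 cells. *Akirin1* then ranked 59, and *Cep250* ranked 41 with the floor at the trimmed mean. *Cep250*, a centrosome gene, was detected in 7 cells, all with *Isl1*. The *Isl1* values come from 1 of 2 probe sets, whose r with each other was -0.09. The correlations of *Tbr1* and *Satb1* rest on 3 detected cells each. The 2 cells left out were J-RGC 11 and EyeWire 4i 24 for *Tbr1*, and ON-OFF DS 6 and PixON 27 for *Satb1*. The values without 2 cells thus rest on OFF S alpha 15 alone for *Tbr1* and on LED 29 alone for *Satb1*, and cannot show whether the likeness holds.

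**Figure D5:**
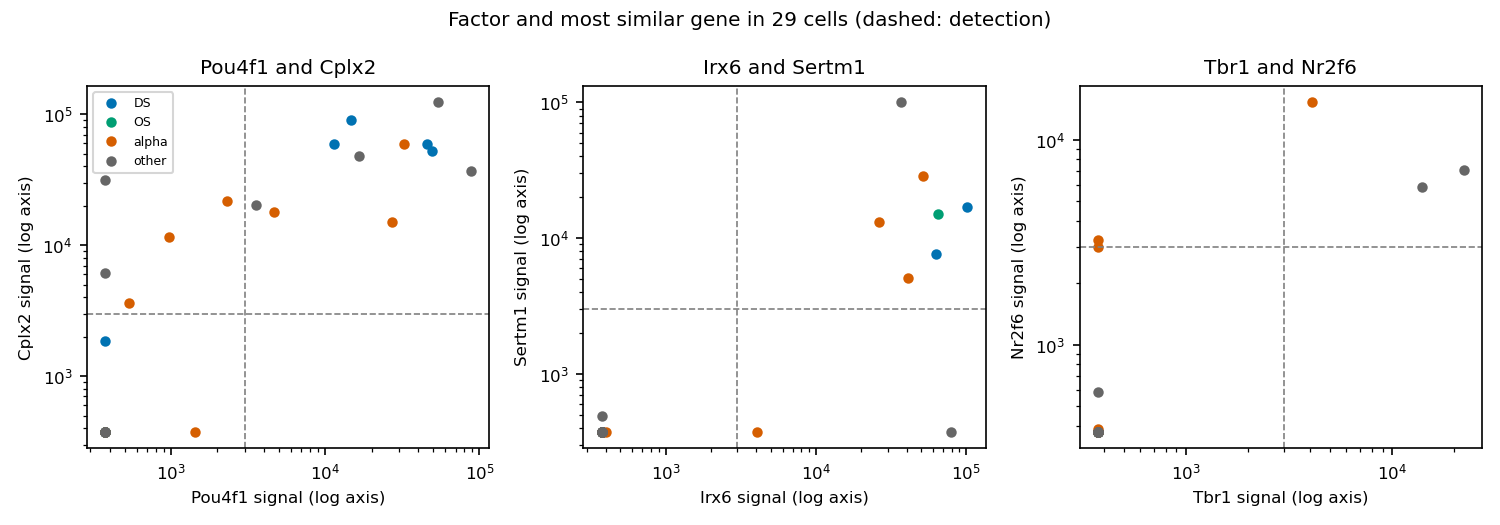
Signal of *Pou4f1*, *Irx6* and *Tbr1* against that of the gene with the most similar pattern, 1 point per cell colored by class, both axes log, values under 375 drawn at 375 and dashed lines at detection. All 11 *Pou4f1* cells lie above detection for *Cplx2*, and the 7 *Sertm1* cells all lie to the right of detection for *Irx6*.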

How the data were processed

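cDNA of 29 single, physiologically classified RGCs was measured on 1 Affymetrix mouse array per cell. The intensity values deposited are linear signals of the MAS5 algorithm as run by the authors (version not given in the sources used here). An annotation table named the probe sets, of which there are 45101. Those of several genes (932) or without a name (9211) were left out, leaving 34958 for 18194 genes. Depth is the number of genes at or above 2 times the trimmed mean, and precision is limited by how many arrays there are. No pair of cells had duplicate values (highest r 0.70).

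Groups came from the labels, and cells were not treated as replicates, so no test, standard error or p-value was computed. Members, gene lists and rules were chosen with earlier results of these data known. The named genes are the 8 factors, the 3 genes most correlated with each factor detected in at least 3 cells, and listed transcription factors and target genes. Some listed genes are not reported here. As alternatives, the threshold was set at 1 and at 4 times the trimmed mean, any probe set or the probe set mean was read, the floor was raised, and quantile normalization, rank correlation and the omission of cells were tried. The procedure was checked on simulated data. The tdTomato+ cells of the study were not analysed here. Python 3.11.15, numpy 2.4.6, scipy 1.17.1, pandas 2.3.3 and matplotlib 3.10.9 were used.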

Additional observations from a re-analysis of the deposited data

Results flagged for a closer look

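In the 3 subtypes of 4 cells, 24 groups (8 factors in 3 subtypes) were screened for a cell far from the other 3 by Dixon's criterion, and 6 had one. Chance gives about 1 in 20 where values are continuous, a rate that does not apply to these groups. On the log2 scale, OFF S alpha 15 stood above the other OFF S alpha cells in *Isl1* (12.89), *Tbr1* (12.00) and *Irx2* (8.79, which is below detection). ON-OFF DS 6 stood above the other ON-OFF DS cells in *Satb1* (13.91) and *Irx6* (15.95). ON DS 1 stood above the other ON DS cells in *Irx6* (16.63). The other cells of these groups all lay at the floor, so any single cell above the floor would have been picked out, and the cell singled out for *Irx2* was itself below detection.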

How the results depend on the processing

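Of 690 values recomputed under the alternatives, 664 stayed the same by the rules used (within 1.5 times for counts, within the interval or the spread for shares and medians, past the 4-fold rule for differences). Most of them, 547, came from leaving out 1 cell, and 539 of these stayed the same. Leaving out 1 of 29 cells can hardly move a share or a count past these rules, so the total says little about stability. No difference past 4-fold changed sign. Differences short of 4-fold did. For DS minus alpha, *Pou4f1* went from 0.54 to -1.92 without any 1 ON-OFF DS cell, and *Isl1* from 0.70 to -3.19 once cells of 5 or more rod genes were dropped. For ON-OFF DS minus ON DS, *Isl1* went from 0.09 to -3.12 without them. With the threshold at 4 times the trimmed mean, 3 factors rather than 6 were detected in at least 3 cells and 10 combinations rather than 16 were seen. Dropping the 18 cells richest in rod genes (5 or more), a choice made after seeing the data that leaves 11 cells, gave 10 combinations, and the factors past 4-fold numbered 2 for DS minus alpha (*Isl1* and *Irx2*, both lower in DS) and 2 for ON-OFF DS minus ON DS. No OFF S alpha cell remained for the third comparison. In the same 11 cells *Opn4* and *Irx6* shared 2 cells, *Tbr1* and *Irx6* 1, and *Satb1* and *Pou4f1* 1. Quantile normalization brought 1 factor past 4-fold for DS minus alpha (*Irx6*, -2.40), and with a floor at the trimmed mean 1 remained for OFF S alpha minus OFF T alpha. When single cells were left out, the count for DS minus alpha was 0 to 1. Of the 18 most similar genes, 11 stayed among the first 10 of their factor without the 2 cells farthest from its median. For *Tbr1* and *Satb1* this left 1 cell in which the factor was detected. The calls nearest the threshold are the least firm, among them those of all 5 *Irx2* cells, which lay within 2-fold of it. No paired analysis was possible because the labels number the cells 1 to 29 and pair none.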
